A study of Gallus gallus with 4 samples.

Results

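Long same-strand runs are stretches of chicken oocyte chromosomes in which 8 or more consecutive transcription units (TUs) were transcribed in 1 direction. A TU was 1 gene of the deposited transcript assembly, for which the isoform of highest FPKM stands here (FPKM is the number of fragments scaled to transcript length and library size), and its span ran from the first to the last exon. TUs with a span of at least 5 kb on autosomes 1 to 15 and 17 to 28 were ordered by midpoint, and their direction was that of the forward (FORW) or reverse (REV) assembly they belonged to. This gave 239 long runs with 2564 TUs, out of 14870 TUs that entered the ordering and 22884 TUs in the whole assembly. They are compared below with the 7795 TUs in 5243 runs of 1 to 3, called short runs, and 4511 TUs in 908 runs of 4 to 7 lie between these classes.

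The study profiled WT oocytes of the chicken, taken at the stage of lampbrush chromosomes (LBC), by strand-specific RNA-seq of polyadenylated RNA, with 2 samples labelled as single nuclei and 2 samples of ooplasm from single cells. No further genotype, treatment or age is given. According to the methods, earlier total RNA reads of oocyte nuclei were added, and transcripts were assembled from the merged reads. Values per library do not exist in the assembly, so nucleus was not compared with ooplasm, no replicate error exists, and the depth per library is unknown. The members were chosen from direction, position and span in this 1 assembly, so all comparisons are descriptions without a test. The 95% intervals of shares and the intervals of differences treat TUs, pairs or runs as independent draws, which neighbours in 1 assembly are not. They do not measure variation between oocytes.

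At the lampbrush stage, homologous chromosomes are held together as giant bivalents, and pairs of lateral loops carry dense rows of RNA polymerases that move in 1 direction along a TU. Nascent transcripts lengthen along the loop, and in amphibians and birds transcription has been seen to pass beyond the ends of genes. The study examined the direction of neighbouring TUs together with the borders of chromatin domains. Inside a long run no TUs converge, apart from pairs formed with a TU under 5 kb or with an opposite-strand TU that overlaps the run. The assembly uses IDs without gene names, so TUs are given by ID and by 1-based position on the chicken assembly ASM2420605v2.

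Long runs covered 163.7 Mb from their first to their last TU, which was 17.3% of the 27 chromosomes. Their number of TUs had a median of 10, and 73 runs had exactly 8 TUs, 24 runs had 15 or more and 5 runs had 20 or more. Their extent ranged between 107 kb and 2139 kb with quartiles of 436, 618 and 835 kb, and 38 runs reached 1 Mb. Forward and reverse runs were about as frequent, with 125 and 114. Member TUs filled a median of 55.0% of the extent of a run.

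Long runs lay on large and small chromosomes. Chromosomes 1 to 5 held 137 runs with 18.2% of their TUs in them, and the other autosomes held 102 runs with 16.1% of their TUs. Chromosome 6 had the highest share, with 200 of 653 TUs (30.6%) in 17 runs, followed by chromosome 13 with 27.5% and chromosome 24 with 25.3%. Chromosomes 21 and 25 had no long run, and the share was 3.85% on chromosome 19 and 4.01% on chromosome 10. In all, 16 of 239 long runs (6.69%) came within 1 Mb of the first or last TU of their chromosome, as did 542 of 5243 short runs (10.3%).

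**Figure D1:**
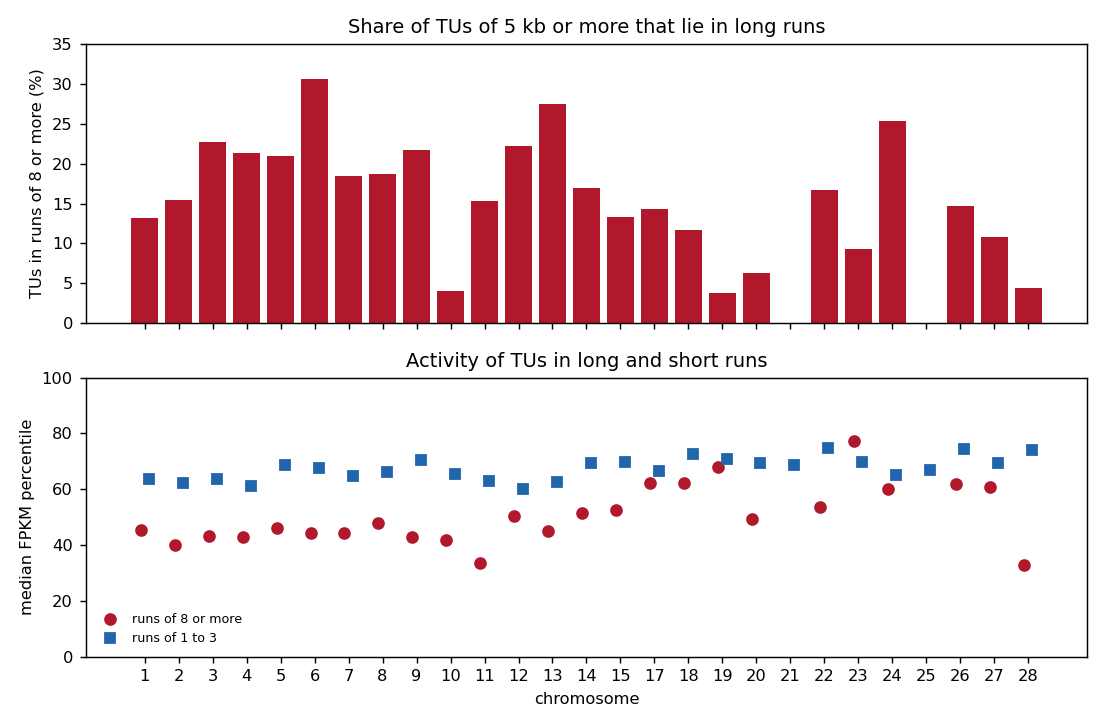
Top, percent of the TUs of 5 kb or more on each autosome that lie in runs of 8 or more; bottom, median FPKM percentile of TUs in runs of 8 or more (circles) and in runs of 1 to 3 (squares) on each autosome. The share is highest on chromosome 6 (30.6%), and the circle lies below the square on 24 of the 25 chromosomes with long runs.

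TUs in long runs had low levels. Their median FPKM was 1.65, with quartiles of 0.802 and 3.70, against a median of 4.25 with quartiles of 1.44 and 12.6 in short runs, and runs of 4 to 7 lay between with 2.39. As the forward and reverse assemblies were scaled separately, levels were also expressed as the FPKM percentile of a TU among all TUs of its assembly. FPKM of the pooled reads is a level of RNA and not a measured rate of transcription. The median percentile was 45.5 in long runs, 65.5 in short runs and 57.9 in all 14870 TUs. The difference between long and short runs was -20.03 percentile points. With TUs of FPKM under 1 left out and runs cut anew from the rest, it was -13.1. FPKM was under 1 in 32.3% of TUs in long runs (95% Wilson interval 30.5 to 34.1) and in 17.8% in short runs (16.9 to 18.6), and it reached 10 in 10.6% (9.47 to 11.9) and 30.2% (29.2 to 31.2) of them.

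The same order appeared in both assemblies, where median FPKM in long against short runs was 1.54 against 4.21 in the forward and 1.80 against 4.28 in the reverse assembly. Chromosome by chromosome, the median percentile was lower in long than in short runs on 24 of 25 chromosomes, by 41.3 points on chromosome 28, where it rests on 8 TUs, and by 18.2 points in the median chromosome. The exception was chromosome 23, where the median percentile was 77.3 in its single long run and 69.7 in short runs. Without single-exon TUs the contrast was of similar size, with a median percentile of 49.8 in 1983 multi-exon TUs of long runs and 70.1 in 6798 of short runs. Weak TUs are nearer to the lowest coverage accepted by the assembler, and coverage was within 2 times that minimum in 7.57% of TUs in long runs and 4.40% in short runs. The part of this limit in the difference was not tested.

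The TUs of long runs were also somewhat longer and simpler than those of short runs. Median span was 20.4 kb in long and 16.2 kb in short runs, and it was higher in long runs on 22 of 25 chromosomes. Runs of 4 to 7 had a median span of 19.4 kb, close to that of long runs. Their TUs had a median of 4 exons, which made up a median of 51.4% of the span. TUs of 100 kb or more made up 4.64% in long runs (interval 3.89 to 5.53) and 4.87% in short runs (4.42 to 5.38). TUs in long runs had a median of 2 exons against 7 in short runs, or 3 against 8 among multi-exon TUs. Exons made up a median of 72.7% of the span in long runs and 36.2% in short runs, and filled at least 90% of it in 39.6% of TUs (interval 37.7 to 41.5) against 19.99% (19.1 to 20.9). An exon here is a stretch that the assembler found without a splice junction, so long exons include unspliced RNA. A single isoform was assembled for 51.4% of TUs in long runs and 49.5% in short runs.

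**Figure D2:**
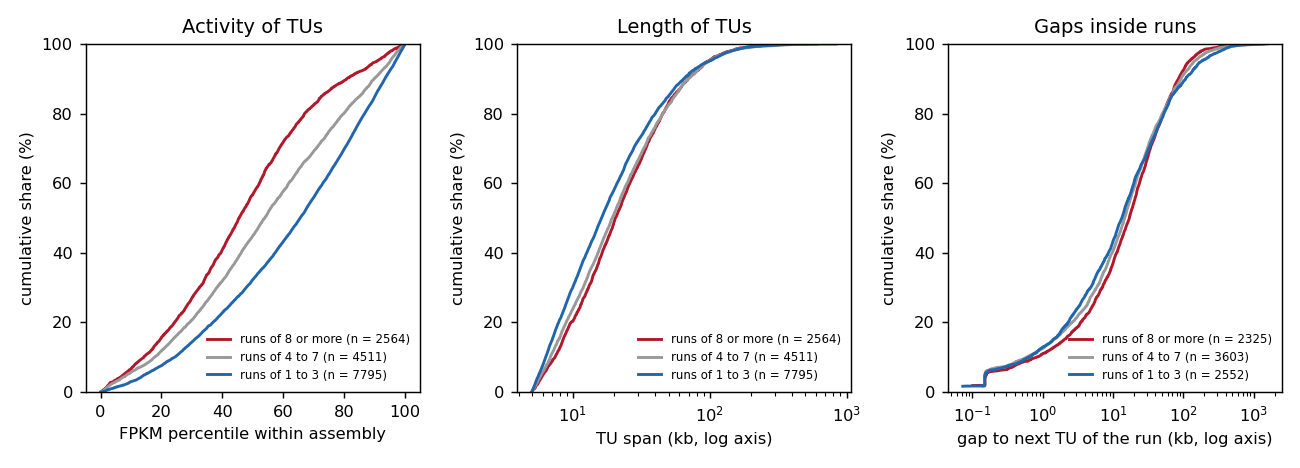
Cumulative share (percent) of TUs by FPKM percentile and by span (kb, log axis), and of gaps between successive TUs of a run (kb, log axis, overlapping pairs not drawn but counted), for runs of 8 or more, 4 to 7 and 1 to 3. The FPKM percentile curve of long runs (median 45.5) lies left of that of short runs (65.5), and median span (20.4 against 16.2 kb) and gap (17.0 against 13.3 kb) are higher in long runs.

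Most long runs held both spliced and single-exon TUs. Single-exon TUs made up 581 of 2564 members (22.7%, interval 21.1 to 24.3), against 12.8% (12.1 to 13.6) in short runs and 16.3% in runs of 4 to 7. The share was higher in long than in short runs on 18 chromosomes and lower on 7, with a difference of -8.71 points on chromosome 20, and the difference of 9.87 points was 6.22 with a minimum span of 3 kb. A long run held a median of 2 single-exon TUs and changed between the 2 kinds a median of 3 times, 10 times at most. Multi-exon TUs alone made up 38 of 239 long runs (15.9%) and 435 of 908 runs of 4 to 7 (47.9%). A longer run has more places for a single-exon TU, so these shares are not alike in meaning. Single-exon TUs were the majority in 13 of 239 long runs and in 41 of 908 runs of 4 to 7. Of 2325 neighbouring pairs in long runs, 714 (30.7%, interval 28.9 to 32.6) combined a single-exon with a multi-exon TU, against 499 of 2552 pairs (19.6%, 18.1 to 21.1) in runs of 2 to 3. A share of mixed pairs depends on the share of single-exon TUs, which was itself higher in long runs, so it does not measure alternation on its own.

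When both kinds met, the spliced TU usually had the higher FPKM, whichever came first, and this was not particular to long runs. In long runs, a multi-exon TU followed by a single-exon TU was the higher one in 236 of 357 pairs (66.1%). A single-exon TU followed by a multi-exon TU was the higher one in 139 of 357 pairs (38.9%). These shares were 75.5% and 17.9% in runs of 2 to 3, where the spliced TU was thus higher more often. In runs of intermediate length they were 66.0% and 30.7%. Where both TUs were spliced, the upstream TU was higher in 51.3% of 1436 pairs in long runs. Single-exon TUs in direct succession formed 175 pairs (7.53%) in long runs and 84 (3.29%) in runs of 2 to 3. Single-exon members spanned a median of 16.5 kb at a median FPKM of 0.988, while in short runs they spanned 9.40 kb at 0.929.

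Gaps inside long runs had a higher median and fewer very large values than those in runs of 2 to 3. Successive TUs lay a median of 17.0 kb apart, with quartiles of 5.22 and 41.8 kb, against 13.3 kb with quartiles of 3.38 and 41.3 kb in runs of 2 to 3. The median gap was higher in long runs on 18 chromosomes and lower on 7, with a difference of -9.55 kb on chromosome 18. The difference of 3.70 kb (interval 1.23 to 6.09) was 2.08 kb with a minimum span of 10 kb. Its interval there, -1.22 to 5.24, included 0. These intervals run between opposite ends of the intervals of both medians, so they are not 95% intervals of the difference. Gaps of 100 kb or more formed 7.61% (interval 6.60 to 8.76) of gaps in long runs and 10.8% (9.67 to 12.1) in runs of 2 to 3, and 106 long runs contained at least 1 such gap. Under 1 kb, overlaps included, were 255 gaps in long runs (10.97%, interval 9.76 to 12.3) and 12.9% (11.6 to 14.2) in runs of 2 to 3. The widest gap of all long runs separated FORW.150 and FORW.153 on chromosome 1 (18814903 to 19592729; 778 kb), followed by FORW.3338 and FORW.3339 on chromosome 3 (747 kb) and REV.1166 and REV.1167 on chromosome 1 (704 kb). The lowest gap, -107.5 kb, was that of REV.3849 and REV.3846 on chromosome 4, where the 17.5 kb span of REV.3849 lies wholly inside the 205 kb span of REV.3846, so a negative gap is not the length shared.

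Many of the distances under 1 kb had the same size. In long runs, 52 gaps measured exactly 150 bp and 81 of 2325 gaps (3.48%) measured 150 to 160 bp. In runs of 4 to 7 these sizes made up 4.47% and in runs of 2 to 3 3.84% of gaps. Both TUs were spliced in 77 of the 81 pairs. Such pairs count as neighbouring TUs here. How many runs stay long when close TUs count as 1 unit is given in the closing section.

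In most long runs median FPKM was higher in the early than in the late part, but the gradient was weak. The Spearman coefficient between FPKM and place in the direction of transcription, computed within each run over its 8 to 24 TUs, had a median of -0.0833 with quartiles of -0.363 and 0.161, and it was negative in 138 runs and positive in 99. The coefficient was at or below -0.5 in 39 runs and at or above 0.5 in 15. An early and a late part with equal numbers of TUs were taken from both ends, with 2 TUs each in a run of 8 and 8 each in the run of 24. Median FPKM was higher in the early than in the late part in 149 of 239 runs (62.3%). The first TU had a higher FPKM than the last TU in 128 of 239 runs. In runs of 4 to 7, where the coefficient rests on few TUs, its median was -0.1 and the early part was higher in 53.5%.

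The strongest TU was the first TU in 53 long runs (22.2%) and the last in 25 (10.5%), while an even spread over all places would put 9.93% at each. The strongest TU exceeded the median FPKM of its run by a median of 6.87 times, and by at least 20 times in 37 runs. A longer run offers more TUs for its maximum, and in runs of 4 to 7 this median was 3.55 times. There the strongest TU was the first TU in 29.2% and the last in 22.4%, against 21.0% for an even spread.

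**Figure D3:**
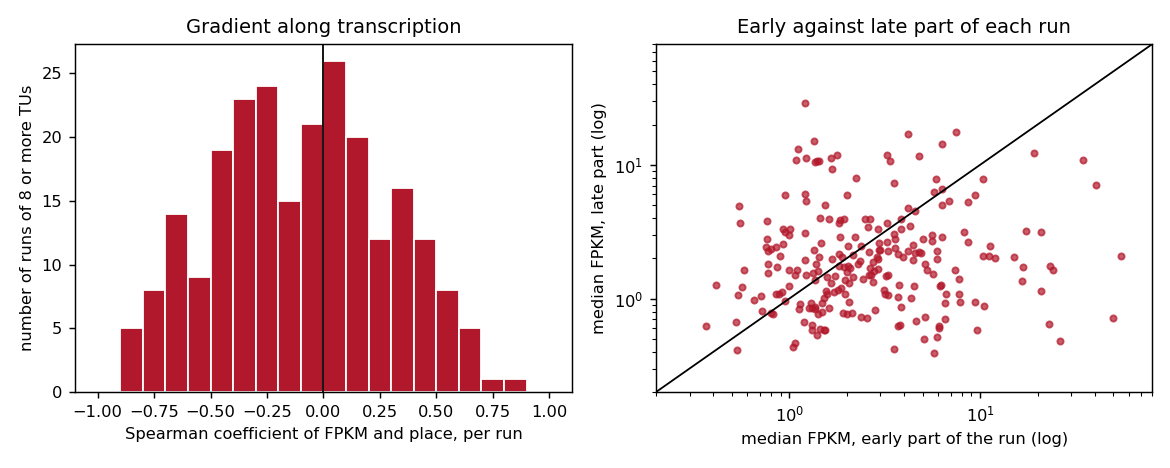
Left, number of runs of 8 or more TUs by the Spearman coefficient of FPKM and place in the direction of transcription; right, median FPKM of the early against the late part of each run, both on log axes, with the line of equality. The coefficient is negative in 138 and positive in 99 runs, and 149 runs lie below the line.

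The levels along a run were lowest in its interior. The median FPKM percentile was 57.5 at the first, 52.5 at the second, 45.1 at the third and 44.1 at the fourth TU, 39.4 in the 652 TUs at least 4 places from either end, and 52.5 at the last TU. The last TU but 1 had a median percentile of 44.1, close to the third TU from the start. The excess over the interior was 18.2 points at the first and 13.2 points at the last place. In runs cut anew from TUs with FPKM of at least 1, the excess was 11.003 and 6.39 points. The interval at the last place, -0.201 to 12.8, then included 0. Multi-exon TUs followed the same course, with 65.2 at the first place, 43.3 in the interior and 56.8 at the last place. Within runs, the first TU exceeded the median of the TUs between both ends in 159 of 239 runs (66.5%), by a median of 1.65 times. The last TU did so in 139 runs (58.2%), by a median of 1.37 times. In runs of 4 to 7 the first TU was above in 56.9% and the last in 51.8%.

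For comparison, TUs that formed a run alone had a median percentile of 67.4, above both ends of the long runs. The interior was drawn from runs of at least 9 TUs only. Single-exon TUs were spread along the whole run, with 20.5% at the first place, 15.1% at the second, 26.4% in the interior and 20.5% at the last. By place, median span was greatest at the second TU, where it was 26.1 kb, and it was 18.3 kb at the first, 21.5 kb in the interior and 16.6 kb at the last place.

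**Figure D4:**
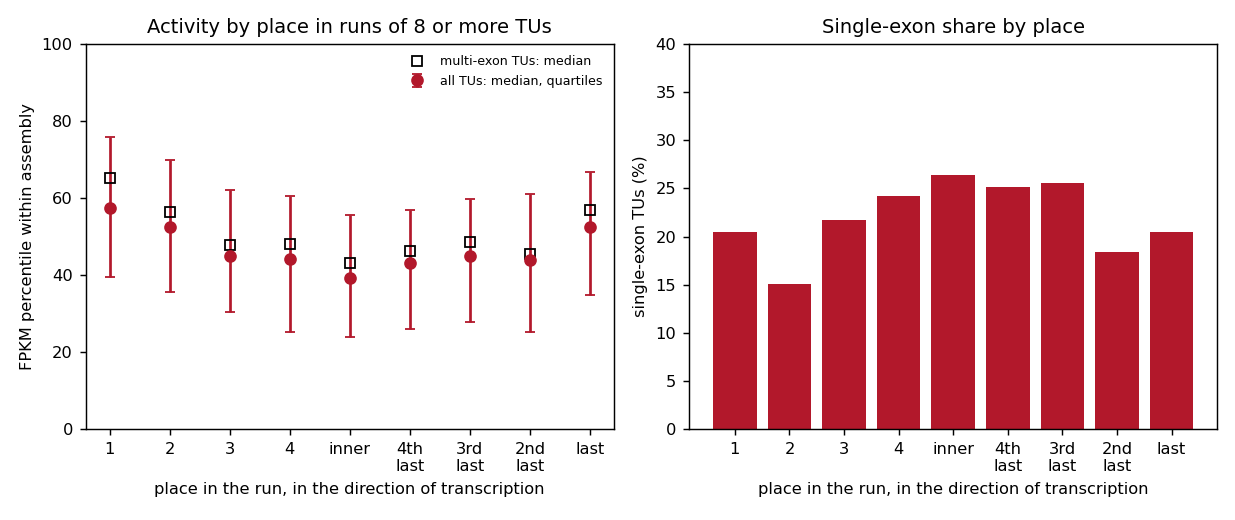
Left, FPKM percentile by place in runs of 8 or more TUs, with the median and quartiles of all TUs (circles) and the median of multi-exon TUs (squares); right, percent of single-exon TUs by place, where inner means at least 4 places from either end. Median percentile is 57.5 at the first place, 39.4 inside and 52.5 at the last place.

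The run with the most TUs lay on the forward strand of chromosome 6 (5799657 to 7198055; 1398 kb) and held 24 TUs, 10 of them with a single exon. Its first TU, FORW.5449 (5799657 to 5809119; 3 exons), had an FPKM of 29.2 and was also its strongest, while the median of the run was 0.855 and the lowest value 0.393. The last, FORW.5477, had an FPKM of 0.478, and the longest, FORW.5450, spanned 146 kb with an FPKM of 1.10. The Spearman coefficient of FPKM and place was -0.48, the kind of TU changed 10 times, and the median gap was 4.86 kb. No later TU of this run exceeded an FPKM of 2.28, reached by the single-exon FORW.5455, which was named after its value was seen.

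A reverse run of 22 TUs on chromosome 2 (27172230 to 28334708) also had its highest FPKM at its first TU. REV.1662 had 10 exons, a span of 111 kb and an FPKM of 6.09, beside a median of 0.877 and an FPKM of 0.626 in the last TU, REV.1639. It changed between spliced and single-exon TUs 9 times, and the coefficient was -0.547. In the forward run of 20 TUs on chromosome 3 (44165887 to 45388838) the coefficient was -0.614. There FORW.3089 started with an FPKM of 17.5, the fifth TU, FORW.3096, reached 49.3, and FORW.3112 ended with 0.520, against a run median of 1.04.

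In both other runs of 20 TUs the highest FPKM was at or near the last TU. On chromosome 4 (35095599 to 36818973), FORW.4059 opened the run with a single exon and an FPKM of 6.42 and FORW.4082 closed it with 24 exons and an FPKM of 19.8, its highest value. Its median was 1.04 and its longest TU, FORW.4063, spanned 229.9 kb with an FPKM of 1.22. The reverse run of chromosome 6 (3628377 to 5013395) had its maximum at place 19, where REV.5295 reached an FPKM of 98.4, against a median of 1.06. Its second TU, REV.5317, had an FPKM of 71.4 and was named after its value was seen. It ended with REV.5294, which had 18 exons and an FPKM of 1.03.

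**Figure D5:**
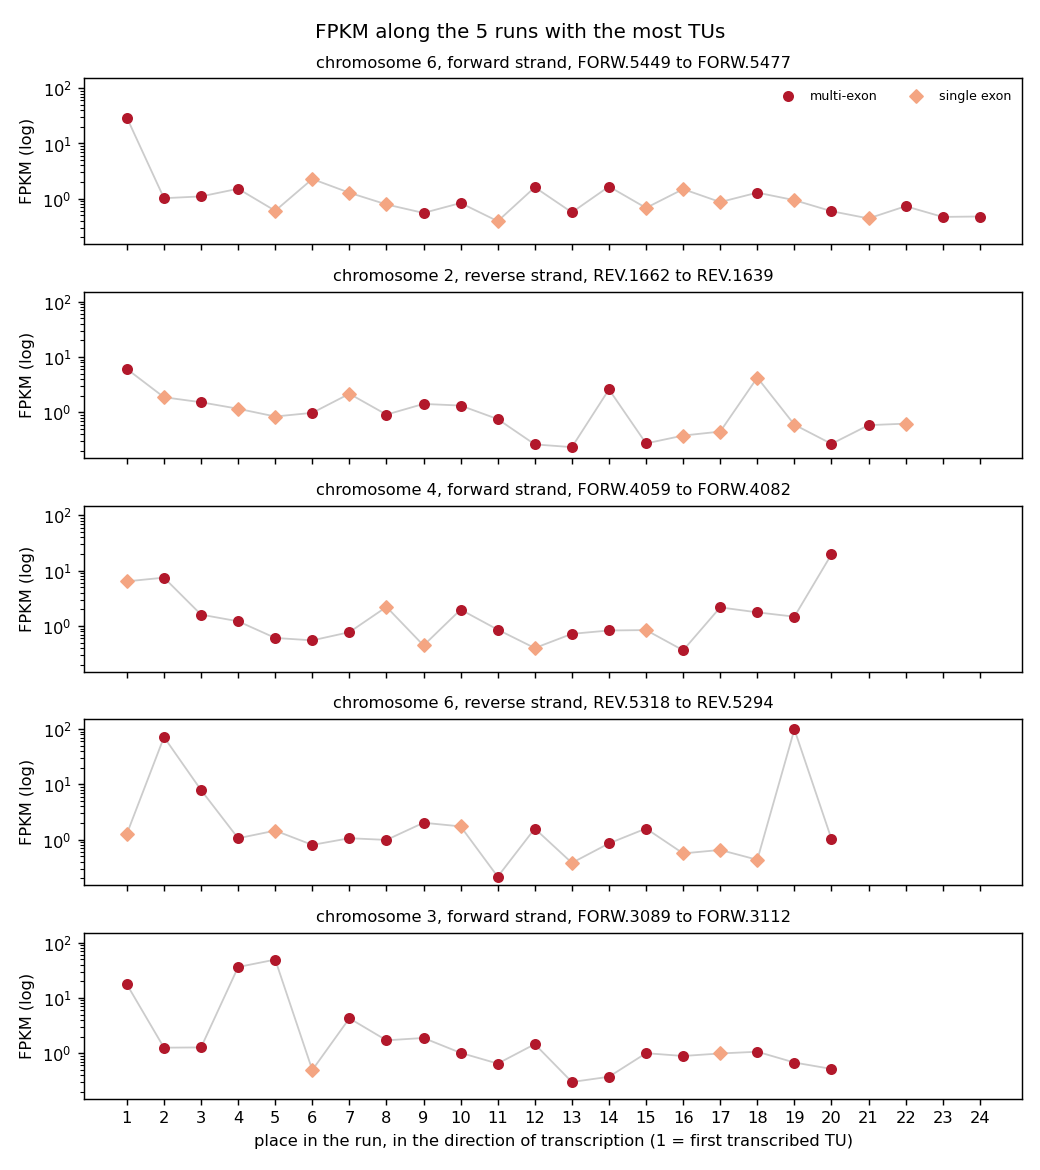
FPKM (log axis) of every TU of the 5 runs with the most TUs, by place in the direction of transcription, with circles for multi-exon and diamonds for single-exon TUs. In the top run FORW.5449 has an FPKM of 29.2 and no later TU exceeds 2.28, while the reverse run on chromosome 6 has its highest value, 98.4, at place 19.

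The strongest gradients ran in both directions. The smallest Spearman coefficient, -0.85, belonged to the forward run of 9 TUs on chromosome 9 (9295008 to 9767679), in which FORW.6693 with 52 exons had an FPKM of 12.4, FORW.6696 reached 75.5 at the third place and FORW.6700 ended with 0.711. It was followed, with -0.833 each, by the reverse runs REV.277 to REV.270 on chromosome 1 (FPKM 3.80 at the first and 0.845 at the last TU) and REV.4853 to REV.4846 on chromosome 5 (9.92 and 1.42). The largest coefficient, 0.833, was found in the reverse run REV.3611 to REV.3614 on chromosome 4 (3452689 to 3951534), with an FPKM of 0.849 at its first and 46.1 at its last TU. The coefficient was 0.786 in REV.2198 to REV.2192 on chromosome 2, with 0.428 at the first and 17.2 at the last TU, and 0.667 in REV.8658 to REV.8651 on chromosome 18, whose strongest TU, REV.8652 (FPKM 24.8), was the last but 1.

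Some long runs combined many strong TUs with a few weak ones. The highest median percentile, 86.8 with a median FPKM of 17.5, was that of the forward run FORW.469 to FORW.479 on chromosome 1 (60948005 to 61478305; 8 TUs, all spliced), led by FORW.471 with an FPKM of 61.5 and 20 exons. Next came FORW.9920 to FORW.9930 on chromosome 26 (450261 to 655385; median FPKM 12.9), led by FORW.9927 with 125, and REV.392 to REV.378 on chromosome 1 (51567646 to 52193016; median FPKM 8.51), led by REV.391 with 38.5. Their lowest FPKM was 0.801 in the first of these, 0.835 in FORW.9920 of the second and 0.392 in the third. At the other end, REV.1738 to REV.1724 on chromosome 2 (36033835 to 36745890; 14 TUs) had a median FPKM of 0.491 and a highest value of 3.10 in REV.1734. REV.5349 to REV.5340 on chromosome 6 (median FPKM 0.525) and FORW.1580 to FORW.1591 on chromosome 2 (0.625) were the next lowest. In 188 of 239 long runs the median percentile was below that of all 14870 TUs.

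Greatest in extent was a forward run of 16 TUs on chromosome 1 (82709525 to 84848785; 2139 kb). It started with its strongest TU, FORW.723 (FPKM 25.1, 7 exons), had a median FPKM of 1.37 and contained the 442 kb FORW.744 (10 exons, FPKM 3.42). The forward run FORW.145 to FORW.156 on the same chromosome (17814361 to 19816616; 2002 kb) had only 11 TUs, which filled 15.0% of it, with the gap of 778 kb described above and 8 single-exon TUs. The reverse run of 15 TUs on chromosome 13 (5751194 to 7708373; 1957 kb) began with REV.7593 (FPKM 51.1) and ended with REV.7579 (FPKM 20.6), with a median of 1.04. Its REV.7581, with 30 exons over 608 kb and an FPKM of 1.93, was the longest member TU.

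The runs with the most single-exon TUs had low FPKM medians. Beside the run of 24 TUs, the largest numbers were 13 of 14 TUs in FORW.7719 to FORW.7732 on chromosome 13 (2691518 to 2890009; 198 kb) and 11 of 16 in FORW.5147 to FORW.5161 on chromosome 5 (40511955 to 41387516). FPKM in the run of chromosome 13 lay between 0.384 and 1.84 with a median of 0.648, a median gap of 1.74 kb and a Spearman coefficient of -0.78. In the run of chromosome 5, FPKM lay between 0.319 and 2.48 with a median of 1.11, and the highest value belonged to FORW.5168 with 2 exons.

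The 5 members of highest FPKM included first TUs of their runs and TUs further along. Over all long runs the strongest TU was the first in 22.2%, as given above. REV.1449 on chromosome 2 (2382957 to 2395110; 5 exons) had the highest FPKM of all 2564 members, 207.8, and was the first of 9 TUs. REV.10046 on chromosome 27 (5898751 to 5909107; FPKM 174) and REV.9876 on chromosome 26 (3204912 to 3212049; FPKM 153) were first in their runs as well. FORW.7334 on chromosome 11 (13820670 to 13867253; FPKM 126) was the fifth of 8 TUs and FORW.9927 (FPKM 125) the seventh of 10. An FPKM of 10 or more was reached by 272 members in 143 runs, and in 47 runs no TU reached 5.

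The longest members ranged in FPKM between 0.991 and 10.5. After REV.7581, the longest were FORW.744, FORW.5510 on chromosome 6 (391 kb, FPKM 3.00), REV.10061 on chromosome 28 (377 kb, FPKM 0.991) and REV.5423 on chromosome 6 (325 kb, FPKM 10.5). The most exons were assembled in FORW.5989 on chromosome 7 (14843153 to 14905361; 101 exons in a single isoform, FPKM 1.43), REV.2998 on chromosome 3 (92 exons, FPKM 7.36), REV.8655 on chromosome 18 (67 exons, FPKM 19.0), FORW.4197 on chromosome 4 (65 exons, FPKM 7.47) and FORW.5794 on chromosome 6 (53 exons, FPKM 10.7).

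Short TUs of the opposite strand, with a span under 5 kb and so outside the ordering, lay inside 176 of 239 long runs. They numbered 380, or 0.232 per 100 kb of run, against 0.409 per 100 kb in short runs. This difference of -0.177 was -0.0539 with FPKM of at least 1. That filter also removed short TUs from the count and runs were cut anew, with rates of 0.0625 in long and 0.116 in short runs. Without it, 6 of the 380 short TUs in long runs (1.58%) carried a recorded strand that contradicts their assembly. In short runs 104 of 1378 (7.55%) did. The difference was -0.134 with direction taken from the recorded strand and -0.145 without TUs of contradicting strand. As gaps take up more of the extent in long than in short runs, TUs and gaps were also counted apart. Within TUs there were 1.67 of them per Mb in long and 3.77 per Mb in short runs, and in gaps 2.98 per Mb in long runs and 4.76 per Mb in short runs. Those in both classes were weak, with a median FPKM of 0.505 in long runs and 0.596 for the 1378 in short runs. Their median span was 2.30 kb in long and 2.49 kb in short runs. In long runs 251 (66.1%) had a single exon, against 57.7% in short runs. Of the 138 that lay within a member TU of a long run, 123 had a lower FPKM than that TU, as did 757 of 856 in short runs. The highest FPKM of those in long runs was 56.5, in REV.8559 on chromosome 18 (5663256 to 5667948). It lay in a gap of a forward run and was named after its value was seen.

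In most long runs these TUs were few. There were none in 63 runs, 1 in 74, 2 in 46 and 10 at most. The maximum occurred in the run FORW.7593 to FORW.7610 on chromosome 12 (12077093 to 12293375; 12 spliced TUs, median FPKM 6.92), and 7 each lay in REV.392 to REV.378 and in REV.9270 to REV.9251 on chromosome 22. Opposite-strand TUs of 5 kb or more overlapped the extent of 109 long runs, with their midpoints outside the range of member midpoints. With both kinds counted, 33 long runs were free of any opposite-strand TU by these criteria. A further 304 short TUs inside long runs were on the strand of the run.

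At their ends the long runs met TUs of the other strand. Upstream, at the divergent end, the gap to the next TU had a median of 2.15 kb in long and 0.812 kb in short runs, with overlap in 30.1% and 35.1%. Downstream, at the convergent end, it was 15.4 kb in 236 long runs and 2.95 kb in short runs, with overlap in 21.2% and 34.1%. The convergent difference of 12.4 kb was 21.2 kb on chromosomes 1 to 5 and 5.65 kb with a limit of 6 TUs. The TU across the divergent end had a median FPKM of 4.28 for long and 4.27 for short runs, and that across the convergent end 2.50 for long and 4.16 for short runs. Each end is shared by 2 runs, so ends of long runs are in part also ends of short runs.

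Another long run was the neighbour of 39 of 239 long runs (16.3%) and of 334 of 5243 short runs (6.37%). Long runs met in 14 convergent and 6 divergent pairs, with median gaps of 25.05 kb and 1.86 kb. The largest such pair was divergent, on chromosome 13, where the run of 15 TUs that starts with REV.7593 and the run of 17 TUs that starts with FORW.7753 took up 3.09 Mb (5751194 to 8837404). REV.7593 (FPKM 51.1) and FORW.7753 (FPKM 1.23) overlapped by 205 bp (gap -0.205 kb). The convergent pair with the most TUs lay on chromosome 9 (20545764 to 21867579), where 18 forward and 11 reverse TUs met between FORW.6836 (FPKM 2.70) and REV.6703 (FPKM 3.69), 23.7 kb apart.

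The levels of neighbours were also compared. FPKM of successive TUs differed by no more than 2 times in 42.1% of 2325 pairs in long runs, in 36.7% in runs of 4 to 7 and in 29.9% of 2552 pairs in runs of 2 to 3. FPKM was less spread in long runs, with the quartiles given above, and the part of this in the share was not tested. The Spearman coefficient of their percentiles was 0.241 in long runs, 0.276 in runs of 4 to 7 and 0.132 in runs of 2 to 3. These pairs come from 1 assembly and share TUs, so the coefficient is a description.

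Few intron lengths recurred within a run. Of 11571 introns in long runs, 396 (3.42%) had a length that recurred in another TU of the same run, against 2.09% in runs of 4 to 7, which hold fewer introns per run to match. Over 20% of introns recurred in 3 of 239 long runs and in 3 of 908 runs of 4 to 7. The 3 long runs included FORW.7593 to FORW.7610 on chromosome 12 (48 of 146 introns) and FORW.7165 to FORW.7174 on chromosome 11 (5 of 16). The other was FORW.5974 to FORW.6002 on chromosome 7 (78 of 269), which contains FORW.5989. These 3 long runs were singled out after their values were seen. Whether their TUs are copies of each other was not tested.

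Around the limit of 8 TUs the values were as follows. TUs in the 73 runs of exactly 8 had a median FPKM of 1.96, a median span of 20.9 kb and 21.4% single-exon TUs, and those in the 113 runs of 7, just outside, had 2.17, 19.6 kb and 13.5%. The median gap was 16.2 kb inside and 14.8 kb outside the limit.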

How the data were processed

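According to the methods of the study, the labels and the file header, the authors trimmed reads with cutadapt, aligned them with HISAT2 to ASM2420605v2, split them by direction of transcription, used SAMtools to mark duplicates and merged what remained over all experiments. StringTie 2.2.2 was run once per direction with a minimum coverage of 1.2 (multi-exon) or 3.5 (single-exon) reads per base, transcripts no shorter than 1000 bp and gaps between reads no wider than 300 bp. The deposited assembly gives coverage, FPKM and TPM per transcript, scaled by the authors within each direction. The deposited score column is constant and was not used. Whether ooplasm reads entered the pool is not stated. Columns of single samples do not occur, and the depth per sample is unknown.

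Here, 1 TU was 1 gene ID. Runs, gaps, ranks and shares were computed with Python 3.11.15, pandas 2.3.3 and SciPy 1.17.1, and the cutting of runs was tested on simulated data. No filter on FPKM and no pseudocount was used. A negative gap means overlap or nesting. Of all TUs, 510 carry a strand that contradicts their assembly (15 members); direction followed the assembly. Shares have 95% Wilson intervals. Named runs were the 5 with most TUs and the 3 most extreme by extent, level, Spearman coefficient, single-exon TUs, switches and opposite-strand TUs, with their first, last, strongest and longest TUs; named TUs were the 5 highest in FPKM, span and exons. The members, lists and rules were chosen with earlier results of these data known. The reference annotation at hand is of another build and was not used, and no sequence is shown.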

Additional observations from a re-analysis of the deposited data

How the results depend on the processing

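The comparisons of long with short runs were repeated under 12 alternatives, and under 2 more chosen after seeing the data, in which TUs of a run under 1 kb or under 5 kb apart counted as 1 unit. Filters on FPKM, exons, strand or span were applied first, and runs were then cut anew from the remaining TUs. Joining changed only which runs counted as long or short, and it left out the joined gaps. Levels, spans, exon structure and places remained those of the unjoined TUs. These 2 settings therefore cannot show how merged TUs would compare. For the first and last place and the convergent gap, all 14 were chosen after seeing the data. No difference changed its sign under any alternative that gave a value. The 239 long runs numbered 125 with FPKM of at least 1, 137 on chromosomes 1 to 5, 102 on the other autosomes, 498 with a limit of 6 TUs, 130 with a limit of 10 TUs, and 137 with TUs under 5 kb apart joined. Their 2564 TUs numbered 1218, 1463, 1101, 4231, 1656 and 1659 under the same settings in this order, and 1662 with multi-exon TUs only. By the strand column, 245 runs with 2611 TUs were found. With TUs under 1 kb apart joined, which covers the pairs 150 to 160 bp apart, 190 runs with 2157 TUs remained. In both joining settings these numbers of TUs count the unjoined TUs.

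The difference of long from short runs in median FPKM percentile (-20.0) was -13.1 with FPKM of at least 1. That filter removed the weakest TUs before runs were cut anew, so the value is not that of the same long runs. The difference in median span (4.23 kb) was 5.75 kb with a minimum span of 3 kb, 2.88 kb with 10 kb and 3.07 kb for multi-exon TUs. That in single-exon share (9.87 points) was 6.22 with a minimum span of 3 kb, 6.69 with FPKM of at least 1 and 6.83 with a limit of 6 TUs. That in short opposite-strand TUs (-0.177 per 100 kb) was -0.127 with a minimum span of 3 kb, -0.0539 with FPKM of at least 1, -0.0876 for multi-exon TUs, -0.104 on chromosomes 1 to 5, -0.306 on the other autosomes and -0.223 with TUs under 5 kb apart joined. The filters on FPKM and exons also removed short TUs from the count. The rates in long and short runs were then 0.0625 and 0.116 with FPKM of at least 1, and 0.0839 and 0.171 for multi-exon TUs. The median gap difference (3.70 kb) ranged between 2.08 and 5.67 kb, the mixed share difference (11.2 points) between 8.04 and 13.1, and the median Spearman coefficient (-0.0833) between -0.152 and -0.0634. The interval of this coefficient, -0.190 to -0.0140, was -0.2 to 0.0286 on chromosomes 6 to 28 and -0.175 to 0.0176 with a limit of 10 TUs. Both of the latter included 0. It ended at 0 on chromosomes 1 to 5, with FPKM of at least 1 and with the longest isoform standing for a TU. The first place exceeded the interior by 18.2 percentile points, and by 11.003 with FPKM of at least 1. The last place exceeded it by 13.2 points, by 6.39 with FPKM of at least 1 and by 9.07 with a minimum span of 10 kb, and on chromosomes 6 to 28 the interval of its 14.2 points was -0.657 to 27.01. The convergent gap difference (12.4 kb) was 21.2 kb on chromosomes 1 to 5 and 5.65 kb with a limit of 6 TUs. The cause of these shifts was not tested. Multi-exon TUs only gives no value for single-exon and mixed shares.

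No paired analysis was possible because the assembly pools all reads and has no column per sample. With no replicate and no depth per library, TUs below the minimum coverage of the assembler are missing, and a missed or split TU changes run length.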
